A study of Gallus gallus with 6 samples.

Results

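The provisional, unnamed hairpin entries of a small RNA series from leg muscle of the chicken (Gallus gallus, Xinghua breed) were examined. They are rows whose ID joins a chromosome or scaffold to a number, with no miRBase-style name and no star suffix. They were chosen by this form of ID and by their counts: of 193 such rows, 5 were left out because their counts lay within 10% of those of a named miRNA in all 6 libraries, which left 188 entries of 846 rows in the tables. The other rows were 534 named miRNAs and 119 provisional rows with a star suffix. All libraries came from females, 2 each at E11 and E16 (days 11 and 16 of embryonic life) and P1 (posthatch day 1), and the labels give no treatment of the animals and no genotype. The labels do not say whether libraries of 1 age were made from different animals, and p-values therefore measure the spread between these libraries only. The tissue is bulk leg muscle, so a smaller share of a cell type and less of an RNA per cell cannot be told apart.

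A miRNA is cut from a hairpin. Drosha trims the primary transcript to a hairpin, Dicer removes the loop, and 1 strand of the resulting duplex is kept in an Argonaute protein while the other, called the star or passenger strand, is usually degraded. Programs that search small RNA reads for this pattern give each new hairpin a provisional ID and list its 2 strands as separate rows. The tables hold only IDs and counts, and no sequences of these hairpins were at hand, so the entries are not named. None of the 188 IDs matched the gene table used here, but that table was not made to hold IDs of this form. They are numbered below by their rank in mean abundance over the 6 libraries, entry 1 being the highest, with the chromosome that stands in the ID. Abundance is in CPM, counts scaled to a common library total, with TMM, a factor that evens out composition between libraries.

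The libraries held between 303556 counts (E11 replicate 1) and 2641042 counts (P1 replicate 1), so rare entries were measured least precisely at E11. The muscle miRNAs with rows in the tables (13 rows of the miR-1, miR-133, miR-206 and miR-499 families, of which 3 were at 0 in both E11 libraries and 1 in both P1 libraries) had summed levels of 8840 to 11380 CPM at E11, 70737 to 77514 CPM at E16 and 137412 to 191434 CPM at P1. Over the same ages the miRNAs of the epithelial list (8 rows, among them miR-200, miR-203 and miR-205 family members) summed to 10282 to 10446 CPM, 155 to 429 CPM and 38.4 to 1134 CPM.

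The 188 entries took between 20.03% and 23.8% of the counts in each library. The mean share was 23.3% ± 0.594 for E11, 22.1% ± 1.41 for E16 and 21.3% ± 1.85 for P1 (SD, n = 2). Exact 95% binomial intervals, which cover counting error only, reached at most 0.150 percentage points to either side of a library's share. The share was 1.99 percentage points lower at P1 than at E11, where the libraries of both ages did not overlap, and the exact two-sided permutation test gave p = 0.333, the smallest that 2 libraries against 2 allow. When entries within counting error of a named miRNA (defined below) were also left out, this difference was -1.53 percentage points (exact permutation p = 0.667). E16 libraries overlapped with those of both other ages (exact permutation p = 0.667 for each pair). The difference between P1 and E16 was -0.79 percentage points, and its sign changed without E16 replicate 1 (0.209) and without P1 replicate 2 (0.520). The 5 rows left out as repeats took 17.1% ± 3.50 at E11, 14.97% ± 2.00 at E16 and 11.8% ± 0.0444 at P1, and star rows took 0.430% ± 0.0182, 0.378% ± 0.00761 and 0.265% ± 0.0640. The library totals include these 5 rows. With them taken out of the totals, the entries' share differed by -2.15 percentage points at E16 against E11 (exact permutation p = 0.333). By these totals the E16 and E11 libraries did not overlap. The difference was then -1.81 at P1 against E16 (exact permutation p = 0.667) and -3.96 at P1 against E11 (exact permutation p = 0.333). All these shares are of library totals without TMM. The TMM factors, by which the totals are multiplied before CPM are taken, were 1.129 and 1.178 at E11 and 0.879 and 0.804 at P1. They raise CPM at P1 against E11, so a lower share at P1 is not a lower summed CPM of the entries.

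**Figure D1:**
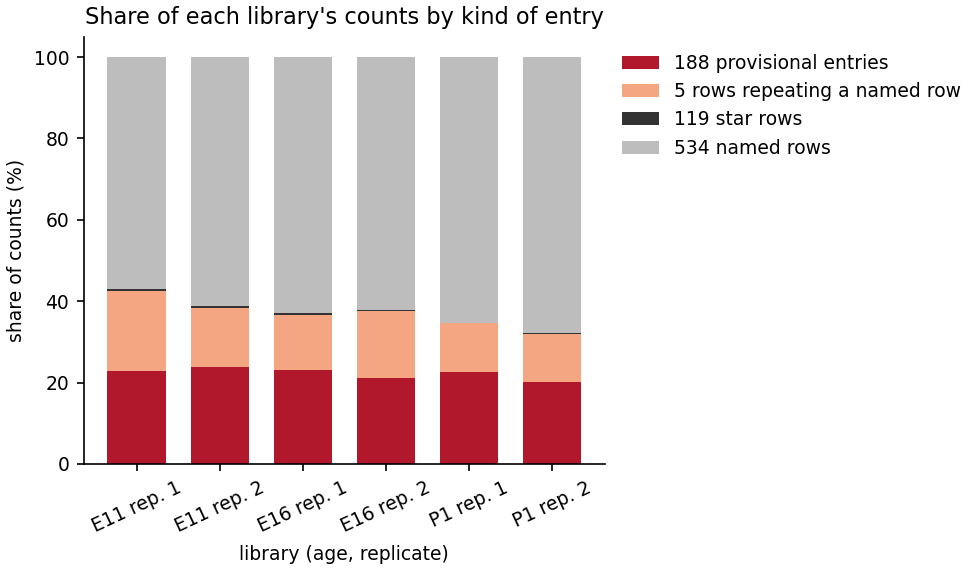
Share of counts in each of the 6 libraries, in percent, split into provisional entries, provisional rows that repeat a named miRNA, star rows and named miRNAs. The provisional entries lie between 20.03% and 23.8% in every library, while the repeating rows average 17.1% at E11, 14.97% at E16 and 11.8% at P1.

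The repeating rows show how the choice was made. Their closest named miRNAs were miR-146c-5p, miR-10b-5p, miR-181a-5p, let-7a-5p and miR-125b-5p, and the largest difference in any library was 0.961%, 1.29%, 1.48%, 2.20% and 8.05%. The entry nearest to the limit on the other side was entry 15 on chromosome 22, which differed from miR-2188-5p by up to 12.1%. It had 123 and 203 counts in the E11 libraries, 837 and 470 in those of E16, and 7857 and 1459 in those of P1, beside 140 and 197, 791 and 517, and 7815 and 1427 for miR-2188-5p. These differences were at most 1.496 times the square root of the summed counts, which is the SD that counting error alone gives the difference of 2 equal counts. By that measure, added after the data were seen, 14 entries lay within 2 such units of a named miRNA in each library. Only entries listed in all 6 libraries (71 of the 188) and with a mean of at least 20 counts could qualify. The 10% limit therefore kept rows whose counts cannot be told apart from those of a named miRNA at their depth. They include entry 9 beside miR-205a (at most 1.25 units) and entry 19 beside miR-203a (1.79 units), both epithelial miRNAs. Entry 14 lay just beyond, at 2.33 units from miR-205b. The 8 most abundant entries all lay at least 7.70 units from any named miRNA, a measure in which a given percent difference counts for more in a deep row. In percent, entry 1 was closer, with at most 21.4% between it and miR-148a-3p in any library (74.1 units), against 45.5% for entry 9 and 57.1% for entry 19. Entries also repeated each other. Entry 6 on a scaffold and entry 7 on chromosome 27 differed by at most 2.81% in any library, and both are counted. By the counting-error measure, entries 34 and 36 (at most 1.38 units), 48 and 49 (1.78 units) and 20 and 21 (1.94 units) could not be told apart either. Each is still counted as a separate entry. How often unrelated rows lie within 2 units was not computed, and rows with few counts do so more easily. Entry 48 lay 0.843 units from let-7d and entry 49 lay 0.816 units from miR-17-3p, which are different miRNAs. Closeness by this measure therefore does not show that 2 rows hold the same molecule.

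Abundance was concentrated in very few entries. The 3 highest took between 74.0% and 88.3% of the counts of the 188 in a library, against 31.1% to 43.4% for the 3 highest named miRNAs among the named counts. This share was higher for the provisional entries in 6 of 6 libraries (exact two-sided sign-flip permutation test over libraries, p = 0.0312, the smallest it allows, and 0.0469 adjusted over 3 measures). The choice of entries by their counts bears on it, since abundant rows were left out as repeats. The one close to miR-10b-5p had 24777 and 54426 counts at E11 and 151321 and 107567 at P1. The named miRNAs closest to such rows stayed in the list of named miRNAs. In E11 replicate 1 the 5 rows left out held 59458 counts, beside 69567 for the 188 entries. In P1 replicate 1 they held 313377, beside 598319. The share of the 3 highest with such rows kept was not computed. Entries 1, 2 and 3 were the 3 highest in every library, and a list of 188 rows was set against 534. The libraries are therefore not independent views of the lists. The p-value covers only how alike these libraries were, and is no test of provisional against named rows in general. The same limits hold for the measures below. Between 4 and 8 of the 188 entries made up 90% of their counts, against 29 to 38 of the more numerous named miRNAs (534 rows). The median count of a listed entry was between 4 and 9, against 7 to 16 for named miRNAs, and lower in 6 of 6 libraries (the same p values). The share of listed rows with at most 3 counts was 30.5% to 44.6% for the entries and 34.0% to 39.8% for named miRNAs, and higher for the entries in 4 of 6 libraries (exact sign-flip permutation p = 0.312, adjusted p = 0.312).

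Over the 6 libraries 4 entries had a mean above 10000 CPM, 11 had 1000 to 10000 CPM, 9 had 100 to 1000 CPM, 36 had 10 to 100 CPM, 66 had 1 to 10 CPM and 62 lay below 1 CPM. A total of 71 entries were listed in all 6 libraries and 26 in only 1 library. Between 112 and 141 entries were listed per library, most in the deepest. When the expected number was computed for each library thinned to 303556 counts, the order turned round. It was 112 and 111 at E11, 93.4 and 96.9 at E16, then 86.4 and 84.9 at P1, so that fewer entries were detectable at equal depth at the later ages. The ages did not overlap (exact permutation p = 0.333 for each pair, the smallest possible). Named miRNAs moved the same way, with means of 299, 261 and 237 over the same 3 ages. The IDs placed 170 entries on 27 chromosomes and 18 on scaffolds, with the most on chromosome 2 (21 entries) and chromosome 4 (18 entries). Abundance was placed differently. The single entry on chromosome 7 held 30.4% and the 5 on chromosome 13 held 37.8% of the summed mean CPM of the 188, while the 21 on chromosome 2 held 0.561%.

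**Figure D2:**
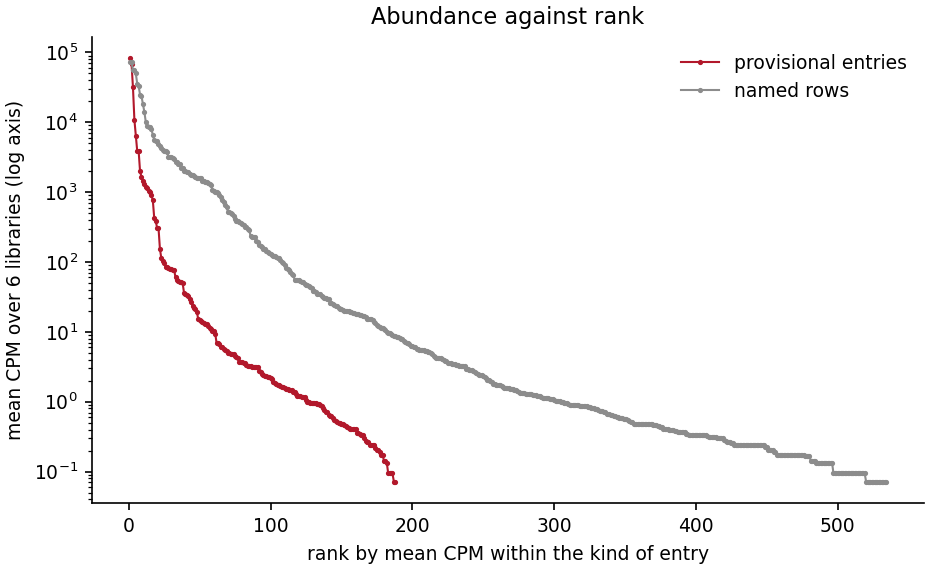
Mean CPM over 6 libraries (log axis) against rank, for the 188 provisional entries and the 534 named miRNAs, 1 point per entry. The provisional curve starts as high as the named one (83134 CPM for entry 1) and drops faster, with 15 entries at or above 1000 CPM.

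Among the 10 most abundant entries, 6 did not pass the threshold in any comparison. Entry 1 on chromosome 13 had the highest mean of all 846 rows. It had 78329 and 54177 CPM at E11, 78714 and 102894 CPM at E16, then 96678 and 88016 CPM at P1. The lowest library was an E11 one, and the P1 libraries lay within the range of the E16 libraries. Its log2 fold change was 0.45 at E16 against E11 and 0.48 at P1 against E11 (edgeR Benjamini-Hochberg adjusted p = 0.431 and 0.306). Entry 5 on chromosome 4 stayed between 4206 and 8197 CPM, entry 8 on chromosome 8 between 1236 and 2723 CPM, and entry 10 on chromosome 1 between 636 and 1912 CPM. Entries 6 and 7 varied more within an age than between ages, with 1648 and 4819 CPM for entry 6 in the P1 libraries and 4971 and 4655 CPM in the E16 libraries. The other 4 were entries 2, 3, 4 and 9, which are described with the comparisons.

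**Figure D3:**
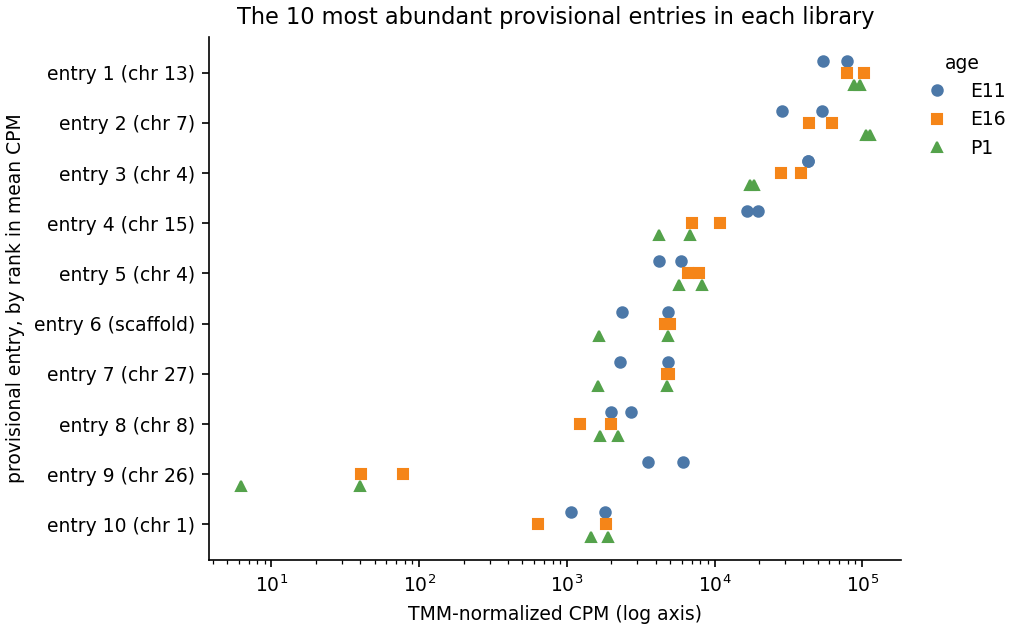
TMM-normalized CPM (log axis) of the 10 most abundant provisional entries, 1 point per library, coloured by age. Entry 9 stands apart, with 3537 and 6164 CPM at E11 and at most 78.3 CPM at E16 and P1. Entry 2 is highest and entry 3 lowest at P1.

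At E16 against E11, few provisional entries were called. Of the 188, 64 had enough counts to be tested, 5 fell and none rose (edgeR quasi-likelihood test, Benjamini-Hochberg adjusted over all 289 tested rows). Of all tested rows 6.57% were called, 4.15% lower and 2.42% higher, so the 7.81% of entries called is near the background. The libraries of both ages did not overlap in 33 tested entries (51.6%), against 56.4% of all rows. At an unadjusted p under 0.05 there were 5 higher and 11 lower entries (25% of 64), against 24.2% of all rows. DESeq2 called 2 higher and 7 lower (9% of the 100 entries it tested), against 9.3% of all rows it tested. The lack of rises depended on the settings. RLE, another scaling, called 1 higher and 4 lower, and the fit with no filter on low counts 3 higher and 11 lower. No share over all rows was computed for these settings. The median log2 fold change was 0.01 over the 64 entries and -0.03 over all rows.

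Entry 14 on chromosome 1 (ID 1_3595) had 2665 and 3347 CPM at E11, 87.1 and 59.8 CPM at E16, then 51.7 and 36.7 CPM at P1. Both E11 libraries stood far above the other 4. It fell 40.8-fold at E16 against E11 (log2 fold change -5.35, SE 0.51, adjusted p = 0.00363). Entry 9 on chromosome 26 (ID 26_20140) had 6164 and 3537 CPM at E11, 78.3 and 40.2 CPM at E16, then 39.6 and 6.21 CPM at P1, and fell 81.5-fold (-6.35, SE 0.98, adjusted p = 0.0147). These are the entries whose counts lie close to those of miR-205b and miR-205a, and whether they measure other molecules was not tested. The epithelial miRNAs moved the same way, with 3 of 7 tested rows lower at E16, 1 of 8 listed rows at 0 there, and their part in these changes was not tested. That list includes miR-205a and miR-205b themselves, so its likeness to entries 9 and 14 is partly built in.

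Entry 20 on chromosome Z rested on a single library. It had 7 and 1276 counts at E11, 1 and 2 at E16, then 5 and 3 at P1. Entry 21, whose ID carries the next lower number on chromosome Z, had 5 and 1268 counts at E11, 1 and 4 at E16, then 8 and 10 at P1, and E11 replicate 2 alone was high in both. Summed over libraries the ratio for entry 20 was 916 in favour of E11 (exact 95% interval 313 to 4449, counting error only), with a log2 fold change of -9.30 (SE 2.13, adjusted p = 0.0472), which became -3.82 without E11 replicate 2 and -10.18 without E11 replicate 1. The remaining calls had few counts. Entry 44 on chromosome 9 had 11 and 6 counts at E16, against 28 and 37 at E11 (-3.13, SE 0.57, adjusted p = 0.0240), and entry 45 on chromosome 1 had 14 and 7 counts at E16, against 18 and 41 at E11 (-2.58, SE 0.53, adjusted p = 0.0335). Entries 20, 21 and 44 passed the filter on low counts through the E11 libraries alone. Rows that enter a test this way can be called lower than E11 but hardly higher, so the direction of these falls is built in.

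The calls depended on which libraries were kept. Without either P1 library, which leaves 2 libraries at E11 and 2 at E16, 2 of 71 tested entries were called. The number was also below 5 in each fit without an E11 or E16 library. No share over all rows was computed for these fits, so a loss of calls particular to the entries was not shown.

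At P1 against E16, none of the 64 tested entries passed, as none of the 289 rows did (0% called). The libraries did not overlap in 27 entries (42.2%), against 51.2% of all rows. At an unadjusted p under 0.05 there were 5 higher and 2 lower entries (10.9%), against 12.8% of all rows. DESeq2 called 1 of all 846 rows (0.118%), which was entry 16 on chromosome 5 (ID 5_27335), higher at P1. The median log2 fold change was -0.34 over the entries and 0.09 over all rows, and these medians shifted by -0.30 over all rows when libraries were scaled by totals alone. The smallest p belonged to entry 16, which had 201 and 207 CPM at E11, 613 and 574 CPM at E16, then 1733 and 2049 CPM at P1. Its libraries of each age lay close together and no 2 ages overlapped. The log2 fold change at P1 against E16 was 1.67 (SE 0.39, unadjusted p = 0.00348 and Benjamini-Hochberg adjusted p = 0.224 in edgeR). Next were entry 42 on chromosome Z (1.93, SE 0.49, edgeR adjusted p = 0.224) and entry 3 on chromosome 4 (-0.90, SE 0.30, edgeR adjusted p = 0.343). Entry 17 on chromosome 3 was uneven at E11, with 1993 and 109 CPM there, 1177 and 998 CPM at E16 and 148 and 173 CPM at P1, and entry 19, which tracks miR-203a, had 994.7 and 3.39 CPM in the P1 libraries, where only replicate 1 was high.

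At P1 against E11, 20 of the 64 tested entries were called, 7 higher and 13 lower. All tested rows had 30.4% called, 14.2% higher and 16.3% lower, so the 31.2% of entries called is near the background. The libraries did not overlap in 42 entries (65.6%), against 65.1% of all rows. The split moved with the scaling: with library totals alone 2 entries were higher and 16 lower, and that scaling shifted the median log2 fold change of all rows by -0.47. The share of all rows called was not computed for that scaling. The 5 entries that fell at E16 were all among the 13 lower ones. These comparisons share the E11 libraries.

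Entry 16 rose 9.24-fold at P1 against E11 (log2 fold change 3.21, SE 0.42, adjusted p = 0.00444). It was called in each of the 13 alternatives tried, and its log2 fold change lay between 3.13 and 3.27 when 1 library was left out. Entry 27 on chromosome 23 had 3 and 12 counts at E11, 68 and 68 at E16, then 258 and 435 at P1, and rose 13.0-fold (3.70, SE 0.69, adjusted p = 0.0132). Its libraries of the 3 ages did not overlap in CPM. Entry 18 on chromosome 18 had 61.3 and 135 CPM at E11, 586 and 157 CPM at E16, then 928 and 663 CPM at P1 (3.002, SE 0.78, adjusted p = 0.0318). The E16 libraries of entry 18 lay far apart, with replicate 2 near the higher E11 library. Entry 61 on chromosome 14 was called higher, with 35 and 31 counts in P1 libraries and 0 and 2 in E11 libraries, a ratio of 8.36 (exact 95% interval 2.22 to 70.5, counting error only; adjusted p = 0.0324). Entry 15, which tracks miR-2188-5p, had 3385 and 824 CPM at P1, against 359 and 292 CPM at E11 (2.69, SE 0.70, adjusted p = 0.0318). Without P1 replicate 1 that value was 1.28.

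The second most abundant entry also rose. Entry 2 on chromosome 7 (ID 7_32911) had 28833 and 53527 CPM at E11, 62886 and 43363 CPM at E16, then 112497 and 106431 CPM at P1. The P1 libraries lay above the other 4, and those of E11 and E16 overlapped. It rose 2.66-fold at P1 against E11 (1.41, SE 0.39, adjusted p = 0.0358), and lost that call in 5 of 6 fits without 1 library. Entry 42 on chromosome Z had 71.9 and 54.2 CPM at P1, against 14.6 and 21.6 CPM at E11 (1.76, SE 0.51, adjusted p = 0.0419). Entries 18 and 42 lost their calls in 6 of 6 such fits, and entries 15 and 61 in 5 of 6. Muscle miRNAs moved the same way as these 7 entries, with 8 of 10 tested rows higher at P1 and 1 of 13 listed rows at 0 there, as did both endothelial miR-126 rows (57348 to 74127 CPM summed at P1, against 13749 to 18527 CPM at E11). The red blood cell list (miR-144 and miR-451) summed to 7734 to 34720 CPM at P1, against 3070 to 3355 CPM at E11, with 1 of 3 rows higher, and 4 of 8 tested leukocyte rows were higher while that list summed to 8426 to 9486 CPM at P1, against 8598 to 19394 CPM at E11. The part of these cell types in the rises was not tested.

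Of the 13 that fell, entries 3, 4 and 9 were among the 10 most abundant. Entry 3 on chromosome 4 had 43122 and 42928 CPM at E11, 38615 and 28315 CPM at E16, then 18535 and 17370 CPM at P1. No 2 ages overlapped. It fell 2.40-fold at P1 against E11 (-1.26, SE 0.30, adjusted p = 0.0275). Entry 4 on chromosome 15 had 16578 and 19588 CPM at E11, 10949 and 7026 CPM at E16, then 4188 and 6818 CPM at P1, again with no overlap between ages, and fell 3.29-fold (-1.72, SE 0.39, adjusted p = 0.0241). Each lost its call in 5 of 6 fits without 1 library. Entry 14 fell 67.8-fold (-6.08, SE 0.52, adjusted p = 0.00166) and was called in each of the 13 alternatives. Entry 9 fell 209-fold (-7.71, SE 1.04, adjusted p = 0.00475), with -9.65 without P1 replicate 1 and -6.90 without P1 replicate 2.

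Entry 23 on chromosome 5 had 117 and 158 counts at E11, 62 and 23 at E16, then 22 and 43 at P1, although the P1 libraries were the deepest, and fell 16.8-fold (-4.07, SE 0.75, adjusted p = 0.0125). Entries 20 and 21 fell by 8.84 and 7.65 on the log2 scale, and without E11 replicate 2 the values were -3.36 and -1.71. They lost their calls in 4 and 5 of 6 fits without 1 library. Entry 44 fell by 3.64 on the log2 scale (adjusted p = 0.00646). As said above, entries 20, 21 and 44 passed the filter on low counts through E11 alone, so the direction of their falls is built in. In 6 of the 13, no library reached 50 counts. Entry 44, for example, had 15 and 7 counts at P1 and 28 and 37 at E11. The epithelial miRNAs fell with them, with 5 of 7 tested rows lower at P1, and 2 of 3 tested cartilage rows (miR-140 and miR-455, 992 to 1208 CPM summed at P1, against 2796 to 4652 CPM at E11) did too, and their part was not tested. The epithelial list includes miR-205a and miR-205b, to which entries 9 and 14 lie close.

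The count of 20 became 7 of 71 tested entries without E16 replicate 1 and 3 of 76 without E16 replicate 2. It was also lower in each fit without a library of E11 or P1. No share over all rows was computed for these fits, so a loss of calls particular to the entries was not shown. In the main fit, where 30.4% of all tested rows were called, the count without the 14 entries within counting error of a named miRNA was 18 of 50 tested, 6 higher and 12 lower. Leaving out 1 library also moved the fold of entry 61 (log2 fold change 7.43 without E11 replicate 2), entry 18 (3.68 without E11 replicate 2), entry 15 (3.42 without P1 replicate 2), entry 27 (3.09 without P1 replicate 2), entry 23 (-4.85 without P1 replicate 2), and entries 20 and 21 (-9.76 and -8.58 without E11 replicate 1) by over 1.5 times.

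**Figure D4:**
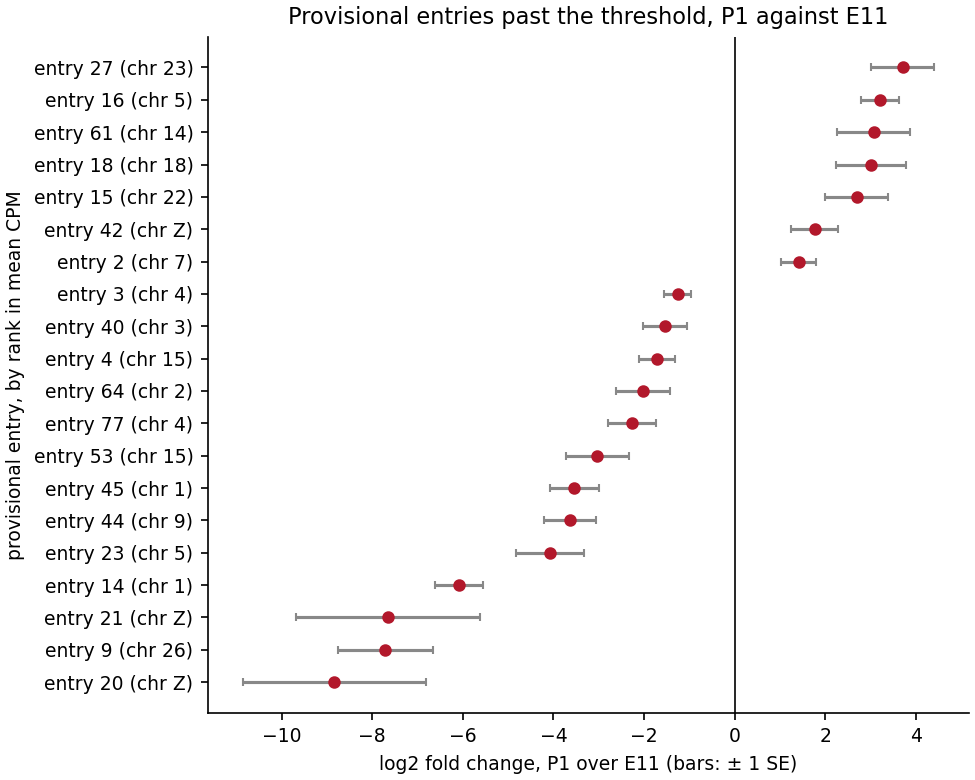
Log2 fold change of P1 over E11 with 1 SE to either side for the 20 provisional entries past the threshold, sorted by fold change, 2 libraries per age. The 7 that rose lie between 1.41 and 3.70 and the 13 that fell between -8.84 and -1.26. Entries 20 and 21, high in 1 E11 library only, have SEs of 2.02 and 2.03.

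The star rows give a second readout of the same hairpins, from other reads. Of the 188 entries 107 had a star row with the same ID, and 31 of these had at least 10 counts over both strands in every library. Of the 107, 10 had more star than main-strand counts in total, the main strand being the row without the suffix. The median main-strand share over the 31 was between 98.6% and 99.98% in a library, and 24 hairpins stayed above 90% in every library. What decided which strand received the star suffix was not stated in any source used here, so a high main-strand share may follow from the naming. The exact permutation test of this median gave p = 1, 0.333 and 1 for E16 against E11, P1 against E16 and P1 against E11. The smallest possible is 0.333, so no difference of any size could have passed.

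The other 7 hairpins had an appreciable star strand in at least 1 library. Entry 8 had a main-strand share of 81.8% ± 4.66 at E11, 80.5% ± 1.98 at E16, then 78.7% ± 3.06 at P1 (SD, n = 2), with overlapping ages. In entry 11 on chromosome 13 the main strand had 335 and 782 counts at E11, 2015 and 1060 at E16, then 3894 and 2479 at P1, and its star strand had 16 and 57, 271 and 220, and 786 and 637. The share was 94.3% ± 1.58 at E11, 85.5% ± 3.77 at E16 and 81.4% ± 2.58 at P1, and both later ages lay below E11 without overlap. Entry 47 on chromosome 14 moved the other way, at 53.3% ± 18.9, 59.9% ± 7.94 and 83.4% ± 0.919, and in E11 replicate 1 its star strand exceeded its main strand (6 against 4 counts). Its main row lay within 1.67 units of miR-30c-1-3p in the measure used above. Entry 16 had 67.7% ± 11.5, 62.4% ± 2.08 and 79.7% ± 4.54, with P1 above both embryonic ages. Strand shares of P1 and E11 that did not overlap were common among the 31 hairpins. Entries 2, 5 and 7, for example, showed this with differences of 1.45, 0.39 and -0.89 percentage points. The exact permutation test of a strand share cannot go below p = 0.333 with 2 libraries against 2, no other test of it was run, and entries 11 and 47 were chosen after their values were seen.

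**Figure D5:**
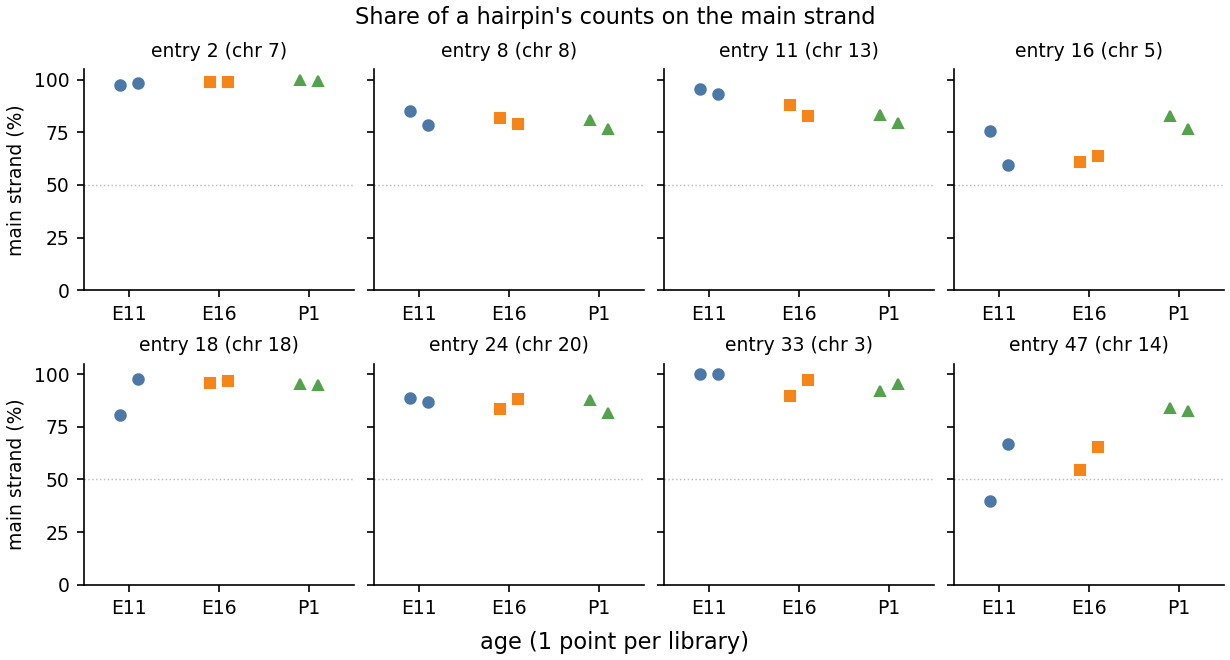
Main-strand share of a hairpin's counts in percent at each age, 1 point per library, for the 7 hairpins with a share at or below 90% in some library and for entry 2. Entry 11 is highest at E11 (94.3% on average) and entries 16 and 47 are highest at P1 (79.7% and 83.4%), while entry 2 stays above 97.5%.

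The star rows of the called entries can be set beside them. For entry 9 the star row fell too, with 7 and 16 counts at E11, 2 and 0 at E16 and 0 at P1, at least 30.3-fold lower at P1 than at E11 by a floor of 3 counts over the P1 group, with an exact 95% lower limit of 22.7-fold that also covers the counting error at E11 (edgeR adjusted p = 0.00646). For entry 16 it had 64.2 and 141 CPM at E11, 392 and 324 CPM at E16, then 357 and 630 CPM at P1, and rose at P1 against E11 (log2 fold change 2.25, SE 0.61, adjusted p = 0.0337). Both strands of this hairpin therefore passed in the same direction. For entry 2 the star row had 730 and 749 CPM at E11, 542 and 564 CPM at E16, then 314 and 726 CPM at P1 (-0.51, SE 0.51, adjusted p = 0.519) and did not pass, while its main strand rose. For entry 42 the star row had -0.01 (SE 0.62, adjusted p = 0.989) beside 1.76 for the main strand. The difference between strands was not tested. The star rows of entries 3 and 4 held at most 13 counts in a library. They had -1.35 and -1.55 (adjusted p = 0.106 and 0.0899), the direction of their main strands. Of 21 star rows tested, 2 were higher and 2 lower at P1 against E11, where 14.2% of all tested rows were higher and 16.3% lower.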

How the data were processed

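Small RNA libraries from leg muscle at 3 ages were analysed. The authors deposited 1 table per library with a count per row, of at least 1. The file headers call the column FPKM, but the values are whole numbers, the value 1 is the most common throughout, and totals differ between libraries, so they were used as counts. If they are rounded FPKM, the tests do not apply. Per the submitters' processing notes, Trim Galore, Bowtie, TopHat, Cufflinks and galGal4 were used, without roles or versions. The program that assigned reads to hairpins, and how it shared reads with several origins, was not stated in any source used here. The labels also mention RNase R and removal of ribosomal RNA.

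Rows missing from a file were given a count of 0. The entries and lists were chosen with earlier results of these data known. Counts were fitted in R 4.3.3 with edgeR 4.0.16 on all 846 rows. The filter filterByExpr (minimum count 10, minimum total 15) kept 289, of which 64 were provisional entries. A row could pass it through the libraries of 1 age alone. TMM scaling and a quasi-likelihood fit with 1 coefficient per age and 3 residual degrees of freedom followed, with Benjamini-Hochberg adjustment within a comparison and 0.05 as threshold; "rose" and "fell" mark rows that passed. SE is the log2 fold change over the square root of F. Replicates differed by more than sampling noise (chi-square per degree of freedom 264 at E11, 171 at E16 and 489 at P1). Described one by one were the 10 most abundant entries, up to 6 rises and 6 falls with the largest change per comparison, or the 3 smallest p-values where none passed. Entries 11, 17, 19 and 47 were chosen after their values were seen. DESeq2 1.42.0, other scalings, filters and tolerances, a replicate term and fits without 1 library were the alternatives. The code of the fit was tried on simulated counts with large changes at P1 in well-counted rows. Their spread between replicates was smaller than in these data, where the biological coefficient of variation was 0.466. That trial therefore does not show how reliable the calls are at the real spread, at low counts or for small changes.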

Additional observations from a re-analysis of the deposited data

How the results depend on the processing

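At E16 against E11, 5 entries were called, 9 by DESeq2, 14 with no filter on low counts, 3 with the replicate block, and 0 to 4 when 1 library was left out. At P1 against E16, 0 were called, 1 by DESeq2 and 3 with no filter, and 0 in each fit without 1 library. At P1 against E11, 20 were called, 8 with only the 4 libraries of those ages, 8 with the replicate block, and 3 to 15 without 1 library. A fit that leaves out a library of a compared age sets 1 library against 2 and takes it to vary like the others. Leaving out a library of the age not compared keeps 2 against 2. It changes the filter, the scaling and the estimate of spread that the ages share. RLE scaling, library totals and leaving out repeating rows kept these counts within 1.5 times. The share of all rows called was computed only for the main fit and, at E16 against E11 and P1 against E16, for DESeq2. The number of entries tested also changed in some settings. Whether the entries lost calls more than other rows did is therefore not known. Whether the replicate numbers pair libraries is not known. Deviations from the age mean correlated at 0.00129 (E11 and E16), 0.323 (E16 and P1) and -0.0269 (E11 and P1), and so few values cannot settle it. Over 20 called values of single entries and 13 alternatives each, 153 of 260 kept their call, 107 lost it and 0 changed sign. The log2 fold change of entry 3 at E16 against E11, which was not called, was -0.55 to 0.017 without 1 library, positive only without E16 replicate 2.

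The number of entries was 189 and 186 at tolerances of 5% and 20%, 149 when a missing row counted as 0, and 174 without rows within counting error of a named miRNA (added after seeing the data). Without 1 library, the difference in share of counts was -2.20 to -0.204 percentage points at E16 against E11, -2.10 to 0.520 at P1 against E16 (0.209 without E16 replicate 1) and -3.30 to -0.683 at P1 against E11. With no row left out these were -3.35, -3.92 and -7.27. The difference in median main-strand share was -0.475 to 0.636, -0.316 to 0.244 and -0.772 to 0.516 percentage points for the same comparisons, and at P1 against E11 it was 0.383 with at least 50 counts per hairpin, against -0.0917. Depth limits the rare entries most: the filter on low counts kept 64 of 188 in the main test.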
